A study of Homo sapiens with 9 samples.

Results

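The 9 genes described here encode the enzymes that break tryptophan down along the kynurenine route: IDO1, IDO2, TDO2, AFMID, KMO, KYNU, AADAT, HAAO and QPRT. They were taken as the probe sets whose single gene symbol is one of these names, which gave 9 probe sets, 1 per gene, of 19460 probe sets with 1 symbol (18417 genes). IDO1 was chosen by its measured intensities: its difference between PS medium and untreated cells ranked 3 from the lowest of 18417 genes. Its levels are therefore a description and carry no test. The other 8 genes complete the route and were taken here as chosen by their place in it. The choice was made with earlier results of these data known, so whether their values played a part is not known, and their tests are not independent evidence.

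The cells were H9, an established human embryonic stem cell line, in a derivative named H9-TCF7L1 that carries a TCF7L1 transgene switched on by doxycycline (Dox). TCF7L1 binds DNA as one of the TCF/LEF proteins and is known chiefly as a repressor of Wnt target genes. Untreated cells were kept in mTeSR1, a medium that maintains pluripotency. A further group was kept 48 h in PS differentiation medium, named for the primitive streak, where mesoderm and endoderm arise. The last group received PS medium for 48 h with Dox at 1 ug/ml for 48 h. All 3 groups carry the transgene, and each has 3 arrays. The groups used here include no Dox without PS medium and no Dox in cells lacking the transgene. Whether the line is a single clone was not given in the sources used here.

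In the kynurenine route, a heme dioxygenase (IDO1, IDO2 or TDO2) opens the tryptophan ring. AFMID then frees kynurenine, and from there the route branches. AADAT turns kynurenine into kynurenic acid, whereas KMO, KYNU and HAAO carry it toward quinolinate, which QPRT turns into a precursor of NAD. IDO1 is known for its induction by interferon gamma and for starving lymphocytes of tryptophan, TDO2 is known mainly from liver, and kynurenines can activate the aryl hydrocarbon receptor AHR.

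Depth cannot be stated for arrays, and their number, 3 per group, limits the precision. Array medians of deposited intensity ran from 200.4 to 216.5 and lower quartiles from 55.6 to 62.5, so no array stood apart by brightness. TCF7L1 (probe set 8043114) read 13100.2, 12433 and 2699 on the Dox arrays against 1275 to 1611 in PS medium and 3572 to 3878 in untreated cells. Dox replicate 3 was thus the low array for the induced gene, above every PS array but below every untreated array. On the normalized log2 scale, TCF7L1 with Dox was 2.39 above PS medium (limma adjusted p = 0.00464). Its difference of 1.04 from untreated cells missed the threshold of 0.05 (limma adjusted p = 0.124). Of 11 measured pluripotency markers, 9 fell in PS medium and 0 rose by limma (0 rises at an unadjusted p under 0.05), while all 12 primitive streak markers rose and 0 fell (0 falls unadjusted). The shares called were 81.8% and 100%, beside 29.8% of all genes. POU5F1, NANOG and TDGF1 are not analysed here.

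IDO1 (probe set 8146092), the enzyme of the first step, was high in untreated cells, lowest in PS medium and intermediate with Dox. Its deposited intensity was 1047, 1101 and 1184 on the untreated arrays. In PS medium it was 48.3, 67.3 and 27.6, beside lower quartiles of 61.4, 58.7 and 58.0 on the same arrays. The PS value was thus dim, and the folds against it are uncertain in size. With Dox it was 217, 206 and 162. The 3 groups did not overlap on any array, and the order was untreated, Dox, PS medium. Group means were 1110.5 ± 69.1, 47.7 ± 19.9 and 195 ± 28.9 (SD, n = 3) for untreated cells, PS medium and PS medium with Dox. On the normalized log2(intensity + 16) scale, which understates changes of dim genes, the mean of IDO1 in PS medium was 18.3-fold below that of untreated cells (log2 difference -4.19 ± 0.20, SE). It was 3.39-fold higher with Dox than in PS medium alone (1.76 ± 0.20), and still 5.40-fold lower with Dox than in untreated cells (-2.43 ± 0.20). The PS fold depends on the offset: with 64 in place of 16 the log2 difference was -3.42. Untransformed means of the deposited values differed 23.3-fold between untreated cells and PS medium. Dox replicate 3, low for TCF7L1, was also the lowest Dox array for IDO1, at 3.40 times the PS mean against 4.33 and 4.54 times for the others. For TCF7L1 these ratios were 1.83 against 8.42 and 8.88. On that array AADAT was the highest of the Dox arrays (0.586 against 0.488 and 0.498). HAAO (0.439 against 0.406 and 0.480) and TDO2 (1.80 against 1.66 and 2.18) lay between the others. This is 1 array, and whether IDO1 follows the TCF7L1 level was not tested. In bulk RNA, fewer cells expressing a gene and less of it per cell cannot be told apart.

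**Figure D1:**
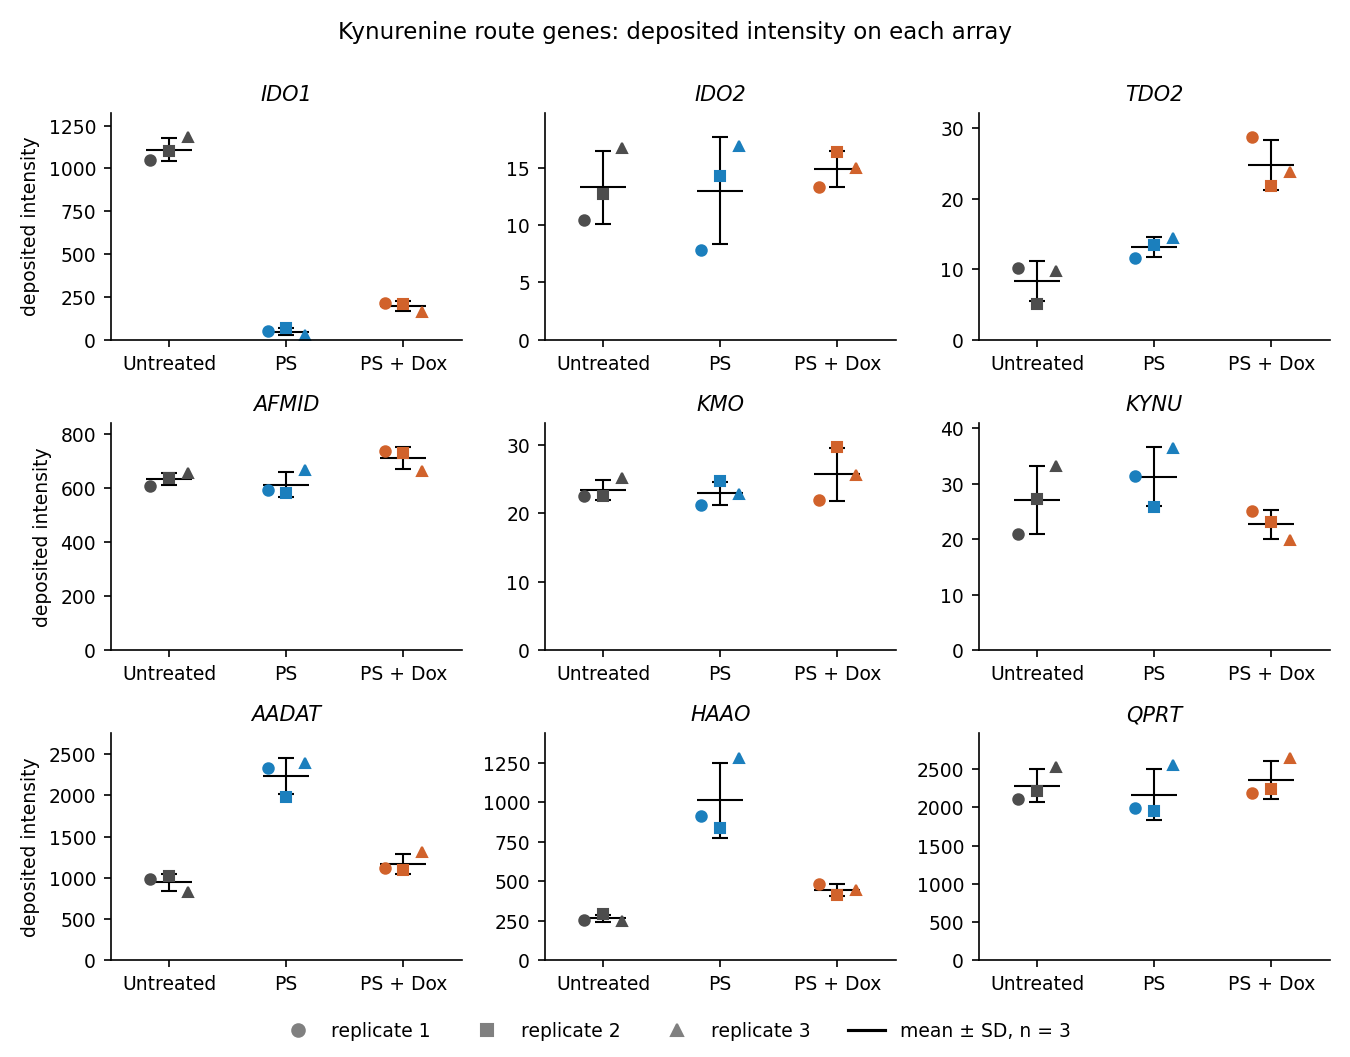
Deposited intensity (linear axis from 0, one scale per gene) of the 9 kynurenine route genes on each of the 9 arrays, with replicate numbers as symbols and the mean ± SD of 3 arrays as bars. IDO1 is high only on the untreated arrays (1047 to 1184), AADAT and HAAO are highest on the PS arrays (1986 to 2391 and 839 to 1282), and IDO2, TDO2, KMO and KYNU stay under 40 throughout.

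The summed level of the pluripotency markers took the same order of groups as IDO1, though not every marker did. The 11 measured pluripotency markers summed to 41175 to 43203 on untreated arrays, 25617 to 29058 in PS medium and 32346 to 33902 with Dox. Of these markers 5 rose and 1 fell with Dox against PS medium (54.5% called, beside 17.4% of all genes). Among them SOX2, a core pluripotency factor, was 4.53-fold higher with Dox (log2 2.18, limma adjusted p = 7.74e-06), and USP44, a deubiquitinase, differed by 0.15 (adjusted p = 0.526). Mean intensity in untreated cells, PS medium and Dox was 4274, 807 and 3570 for SOX2 and 8597, 5565 and 7982 for PODXL. L1TD1 (1532, 1493 and 713) and SALL4 (3823, 3899 and 3436) were lowest with Dox. PRDM14 (1113, 537 and 1175) was highest with Dox. IDO1 is also a product of macrophages and dendritic cells. Their 11 markers summed to 1948 to 2298 in untreated cells, 1903 to 2161 in PS medium and 1703 to 1798 with Dox, an order unlike that of IDO1. Of these markers 1 rose and 2 fell in PS medium, and 0 rose and 3 fell with Dox against PS medium by limma (0 and 3 unadjusted). The share called was 27.3% in each comparison, beside 29.8% and 17.4% of all genes. PTPRC, the pan-leukocyte marker, lay between 19.2 and 25.5 on all 9 arrays. Mean intensity was 198, 331 and 240.1 for CD68 and 483, 352 and 140 for AIF1 in untreated cells, PS medium and Dox. The 11 amnion and trophectoderm markers summed to 2904 to 3229, 17196 to 17766 and 29752 to 33887, highest with Dox. Of these, 5 rose and 2 fell in PS medium, and 7 rose and 0 fell with Dox against PS medium by limma (7 and 0 unadjusted). The share called was 63.6% in each comparison, beside 29.8% and 17.4% of all genes. TFAP2A held the largest part of the sum with Dox (means 202, 8440 and 17114). HAND1 had a lower mean with Dox than in PS medium (20.1, 3656 and 2469), and CDX2 changed little (1148, 1107 and 1211). No marker was listed at 0 on any array, and the part of these markers in the IDO1 levels was not tested.

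The other dioxygenases were dim in every group. IDO2 (probe set 8146105), a relative of IDO1 with weaker activity, read 10.4, 12.7 and 16.7 without treatment, 7.79, 14.3 and 16.9 in PS medium, and 13.3, 16.4 and 15.0 with Dox. All 3 groups overlapped, and no difference passed: the 95% interval of PS medium minus untreated cells ran from -0.30 to 0.29 on the log2 scale, and that of Dox minus PS medium from -0.18 to 0.41. TDO2 (probe set 8097991), the liver-type dioxygenase, read 10.2, 5.13 and 9.71 in untreated cells. It read 11.7, 13.5 and 14.5 in PS medium and 28.8, 21.8 and 23.7 with Dox. The groups did not overlap, and TDO2 went up while all of its values lay below the arrays' lower quartiles. It rose 1.40-fold with Dox against PS medium (log2 0.48 ± 0.10, SE, n = 3 per group, limma adjusted p = 0.00564), and this call held in all 16 alternative settings. Against untreated cells the Dox value was 1.70-fold higher (0.77 ± 0.10, adjusted p = 0.000168). At these dim levels the size depends on the offset: that difference was 1.54 on the log2 scale with an offset of 1 and 0.30 with 64. Its rise in PS medium was 1.22-fold (0.28 ± 0.10, adjusted p = 0.0485), a call lost in 13 of 16 alternatives, whose adjusted p ran from 0.0354 to 0.180. It was lost whichever of the 9 arrays was left out, with adjusted p from 0.0504 without Dox replicate 1 to 0.180 without untreated replicate 2. The 8 measured hepatocyte markers stayed near their untreated sums of 644 to 721 (652 to 710 in PS medium, 626 to 725 with Dox). Within the sum, 1 marker rose and 1 fell in PS medium by limma (25% called, beside 29.8% of all genes). Mean intensity in untreated cells, PS medium and Dox was 99.0, 121 and 113 for ALB, which encodes albumin, and 102, 64.9 and 68.2 for APOB. ALB read 88.4 to 135 over the 9 arrays.

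AFMID (probe set 8010248), the formamidase that follows, lay between 581 and 737 on all arrays. It read 610, 638 and 655 without treatment, 593, 581 and 666 in PS medium, and 737, 732 and 664 with Dox. The Dox arrays overlapped the PS arrays through replicate 3, and all of them lay above the untreated arrays. Dox minus PS medium was 0.20 ± 0.08 on the log2 scale (95% interval 0.03 to 0.36, adjusted p = 0.105), and PS medium minus untreated cells was -0.07 ± 0.08 (adjusted p = 0.527). Neither passed.

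AADAT (probe set 8103706), the aminotransferase that makes kynurenic acid and also acts in lysine breakdown, moved opposite to IDO1. Its intensity was 985, 1028 and 828 without treatment, 2334, 1986 and 2391 in PS medium, and 1115, 1093 and 1310.2 with Dox. Every PS array was above every array of the other groups. AADAT rose 2.29-fold in PS medium against untreated cells (log2 1.19 ± 0.11, SE, limma adjusted p = 1.39e-05) and was 1.88-fold lower with Dox than in PS medium (-0.91 ± 0.11, adjusted p = 0.000196). Dox and untreated arrays also did not overlap, but their difference, 0.28 ± 0.11, missed the threshold (adjusted p = 0.0732, 95% interval 0.04 to 0.52). It passed with median centring of the arrays (adjusted p = 0.0388).

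HAAO (probe set 8051799), the iron enzyme that opens the ring of 3-hydroxyanthranilate on the way to quinolinate, had the same order of groups as AADAT. It read 258, 290.4 and 247 without treatment, 913, 839 and 1282 in PS medium, and 485, 410.5 and 444 with Dox. None of the 3 groups overlapped, with PS medium highest and untreated cells lowest. HAAO rose 3.60-fold in PS medium (log2 1.85 ± 0.14, adjusted p = 4.16e-06). With Dox it was 2.17-fold lower than in PS medium alone (-1.12 ± 0.14, adjusted p = 0.000298). It remained 1.66-fold above untreated cells (0.73 ± 0.14, adjusted p = 0.00265). All 3 calls held in every one of the 17 alternatives, as did the first 2 calls of AADAT. The summed level of 12 primitive streak markers took the same order: 2350 to 2524 in untreated cells, 96260 to 108925 in PS medium and 23384 to 33838 with Dox. EOMES held most of that sum, at 50981 to 57102 in PS medium. The part of these markers in the AADAT and HAAO levels was not tested.

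The upstream sequences of the tested members that changed with Dox are shown next: AADAT and HAAO, which were lower, and TDO2, which was higher. Whether TCF7L1 acts on any of them was not tested. RefSeq's promoter table (GRCh38.p14) held 10 starts for 7 of the 9 genes, and IDO1 and IDO2 had no entry. Each line gives the 250 bases before the start, read 5′ to 3′ on the gene's strand, in lower case, with any match to CTTTGA, a core read by TCF/LEF factors, in capitals.
AADAT, chr4:170090388-170090637, minus strand, the most upstream of 3 listed starts: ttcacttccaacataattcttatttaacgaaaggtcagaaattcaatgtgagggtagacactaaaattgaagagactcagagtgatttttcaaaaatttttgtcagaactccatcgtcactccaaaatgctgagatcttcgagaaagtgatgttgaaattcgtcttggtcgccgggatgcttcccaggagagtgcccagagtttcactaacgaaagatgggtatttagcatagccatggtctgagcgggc
HAAO, chr2:42792584-42792833, minus strand: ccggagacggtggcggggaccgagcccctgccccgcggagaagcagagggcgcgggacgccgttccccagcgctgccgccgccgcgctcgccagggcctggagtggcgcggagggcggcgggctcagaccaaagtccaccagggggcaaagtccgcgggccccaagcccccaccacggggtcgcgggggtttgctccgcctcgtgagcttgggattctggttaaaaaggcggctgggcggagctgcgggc
TDO2, chr4:155903446-155903695, plus strand: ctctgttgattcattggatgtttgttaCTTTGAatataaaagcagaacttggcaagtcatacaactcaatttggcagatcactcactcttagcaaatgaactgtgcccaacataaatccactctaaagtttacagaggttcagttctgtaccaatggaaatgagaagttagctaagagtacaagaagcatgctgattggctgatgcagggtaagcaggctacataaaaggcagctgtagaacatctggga
CTTTGA was searched on both strands. It was found in the windows of TDO2, from 223 bases before the start, and of KYNU, from 32 bases before the start, and in none of the other 8 windows of AADAT, HAAO, AFMID, KMO and QPRT. Of all 34943 windows of this length in the table, 11.2% held it. GGTGTGA, a core read by T-box factors such as EOMES, was found in 0 of the 10 member windows and in 2.8% of all windows. The windows differed in base composition: 74.8% of the HAAO bases and 40.0% of the TDO2 bases were G or C. The 3 AADAT windows held 41.6% (the printed one), 61.6% and 78.8%. A match is a run of letters and not a measured site.

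KMO and KYNU, the enzymes between kynurenine and 3-hydroxyanthranilate, stayed dim. KMO (probe set 7910950), a hydroxylase of the mitochondrial outer membrane, read 22.5, 22.5 and 25.1 without treatment, 21.2, 24.6 and 22.8 in PS medium, and 21.9, 29.6 and 25.5 with Dox. KYNU (probe set 8045539), kynureninase, read 20.9, 27.3 and 33.2, then 31.5, 25.9 and 36.5, then 25.1, 23.0 and 19.9 in the same order of groups. KMO groups overlapped throughout, and its 95% intervals were -0.21 to 0.23 for PS medium minus untreated cells and -0.12 to 0.31 for Dox minus PS medium. All KYNU values with Dox lay below those in PS medium, but the difference of -0.28 ± 0.13 missed the threshold (adjusted p = 0.166, 95% interval -0.56 to -0.01).

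QPRT (probe set 7994609), the enzyme that feeds quinolinate into NAD synthesis, was read at about the same level in every group. It read 2107, 2212 and 2522 without treatment, 1993, 1956 and 2546 in PS medium, and 2193, 2237 and 2648 with Dox. Replicate 3 was the highest array of each group, and the groups overlapped. PS medium minus untreated cells was -0.10 ± 0.11 (95% interval -0.35 to 0.15, adjusted p = 0.566), and Dox minus PS medium was 0.15 ± 0.11 (adjusted p = 0.432). With the replicate number as a block, the 0.15 rise with Dox passed (adjusted p = 0.0424).

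Counted over the 8 tested genes, 3 passed in PS medium against untreated cells (AADAT, HAAO and TDO2, all higher), beside 29.8% of all 18417 genes (14.2% higher and 15.7% lower). By limma 0 fell, with 0 falls at an unadjusted p under 0.05 too. With Dox against PS medium, 3 passed (TDO2 higher, AADAT and HAAO lower), beside 17.4% of all genes (8.91% higher and 8.44% lower). With Dox against untreated cells, 2 passed (TDO2 and HAAO, both higher, 0 lower by limma and 0 unadjusted), beside 30.3% of all genes (15.3% higher and 14.9% lower). Groups did not overlap for 3, 4 and 4 of the 8 genes in these comparisons, beside 42.5%, 29.9% and 44.6% of all genes. Median log2 differences of the 8 were 0.09, 0.11 and 0.12, against -0.01, 0.00 and 0.00 over all genes. The comparisons share arrays, so their values stand side by side only.

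**Figure D2:**
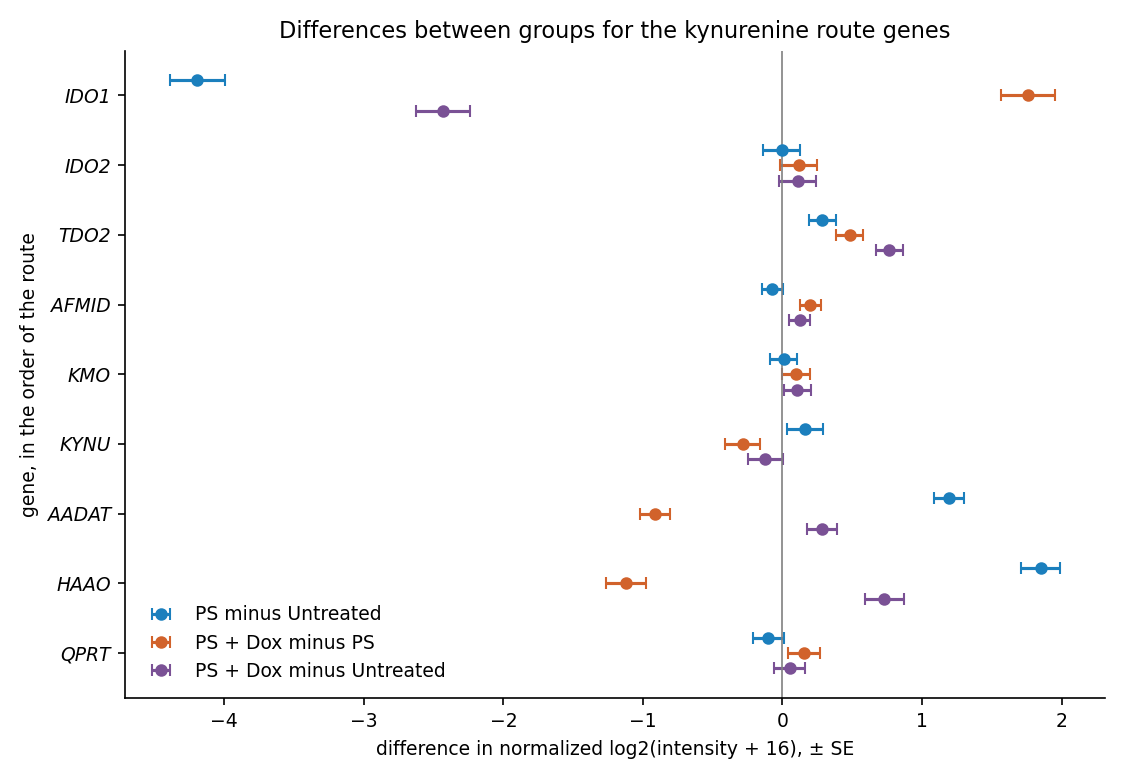
Differences between group means (points) with their SE from limma (bars) in normalized log2(intensity + 16), for the 9 genes in route order and all 3 comparisons. IDO1 lies far left for PS medium minus untreated cells (-4.19) and right for Dox minus PS medium (1.76), while AADAT and HAAO lie on the opposite sides (1.19 and -0.91, 1.85 and -1.12).

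The genes around the route were read from lists of enzymes, carriers and sensors. Each list's counts stand beside the share called over all genes, 29.8% in PS medium against untreated cells and 17.4% with Dox against PS medium. Of 11 measured further enzymes of tryptophan and its products, 1 rose and 5 fell in PS medium (54.5% called, median 0.00), and 0 rose and 2 fell with Dox against PS medium by limma (18.2% called, 0 rises and 3 falls unadjusted, median -0.08). WARS1, which loads tryptophan onto its tRNA, read 2032, 2253 and 2127 without treatment, 2947, 2998 and 3282 in PS medium, and 1476, 1980.2 and 1309 with Dox. It was highest on the PS arrays, rose 1.42-fold there (adjusted p = 0.00848) and was 1.94-fold lower with Dox (adjusted p = 0.000278). MAOA and MAOB, monoamine oxidases of the serotonin branch, were 1.42-fold and 1.65-fold lower in PS medium (adjusted p = 0.0181 and 0.00200), and MAOA fell a further 1.53-fold with Dox (adjusted p = 0.0105). The MAOA fall in PS medium no longer passed without untreated replicate 3 (adjusted p = 0.0730) or PS replicate 1 (0.0634). KYAT1, another aminotransferase that makes kynurenic acid, was 1.29-fold lower in PS medium (adjusted p = 0.0146), a call lost without untreated replicate 1 (0.0600) or 2 (0.0571). With Dox against PS medium it differed by -0.25 (adjusted p = 0.112), which passed with the replicate block (0.0384).

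Of 12 genes of NAD synthesis and salvage, 3 rose and 4 fell in PS medium, and 5 rose and 2 fell with Dox against PS medium. That is 58.3% called in each comparison, beside 29.8% and 17.4% of all genes. List medians were -0.02 and 0.17 on the log2 scale. NMNAT2, which makes NAD from its mononucleotide and ATP, was 849, 947 and 951 without treatment, 331, 394 and 334 in PS medium, and 981, 1156 and 1369 with Dox. It was lowest on all PS arrays: 2.58-fold below untreated cells (log2 -1.37 ± 0.12, adjusted p = 1.25e-05) and 3.18-fold below Dox (1.67 ± 0.12 for Dox minus PS medium, adjusted p = 8.88e-06). The nicotinamide riboside kinases went opposite ways. NMRK2 was 1.89-fold lower in PS medium (adjusted p = 0.00397) and 2.06-fold higher with Dox (adjusted p = 0.00315), and NMRK1 was 1.97-fold higher (adjusted p = 0.000302) and 1.89-fold lower (adjusted p = 0.000854). PNP, a phosphorylase of purine nucleosides that also splits nicotinamide riboside, rose 1.78-fold in PS medium (adjusted p = 0.000509) and was 1.56-fold lower with Dox (adjusted p = 0.00447).

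In the branch that burns the ring-opened product to glutaryl-CoA and acetyl-CoA, 0 of 6 genes rose and 2 fell in PS medium by limma (0 and 3 unadjusted), and 1 rose and 0 fell with Dox against PS medium (1 and 0 unadjusted). These shares, 33.3% and 16.7%, were near those of all genes, 29.8% and 17.4%. ACAT1, a thiolase, was 1.32-fold lower in PS medium (adjusted p = 0.00444). DHTKD1, a dehydrogenase subunit, was 1.21-fold lower in PS medium (adjusted p = 0.0360) and 1.29-fold higher with Dox (adjusted p = 0.0127). Its fall in PS medium did not pass without untreated replicate 1 (0.113) or 3 (0.119) or PS replicate 1 (0.0871) or 2 (0.123), as deposited (0.0518) and with median centring (0.0844), and its rise with Dox was lost without Dox replicate 1 (0.0538).

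Among 9 carriers of tryptophan, kynurenine and related amino acids, 2 rose and 2 fell in PS medium, and 1 rose and 1 fell with Dox against PS medium. The shares called were 44.4% and 22.2%, beside 29.8% and 17.4% of all genes. SLC7A8, a subunit of a neutral amino acid exchanger, was 1.72-fold lower in PS medium (adjusted p = 1.34e-05). SLC43A1, a carrier of large neutral amino acids, read 977 to 1035 in untreated cells, 639.9 to 708 in PS medium and 279 to 409 with Dox, a fall at each step (1.52-fold, adjusted p = 0.00290, then 1.85-fold, adjusted p = 0.000460). Its relative SLC43A2 rose 1.78-fold with Dox (adjusted p = 0.000489). SLC7A5, the main tryptophan and kynurenine exchanger, rose 1.28-fold in PS medium (adjusted p = 0.0122, or 0.0510 without untreated replicate 3). SLC36A4, a high-affinity tryptophan carrier, rose 1.22-fold (adjusted p = 0.0132, or 0.0647 without untreated replicate 1). Its difference of -0.20 with Dox (adjusted p = 0.0904) passed with the replicate block (0.0332) or without Dox replicate 3 (0.0383).

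Of 10 measured genes of kynurenine sensing through AHR, 3 rose and 1 fell in PS medium, and 0 rose and 2 fell with Dox against PS medium by limma (0 and 2 unadjusted). The shares called were 40.0% and 20.0%, beside 29.8% and 17.4% of all genes. AHR itself read 506 to 608, 483 to 584 and 554 to 667 in untreated cells, PS medium and Dox, with groups that overlapped (adjusted p = 0.435 for PS medium against untreated cells and 0.425 for Dox against PS medium). CYP1B1, an AHR-inducible monooxygenase, read 126, 130.3 and 144 without treatment, 2144, 1098 and 1529 in PS medium, and 658, 627 and 444 with Dox. It rose 10.5-fold in PS medium (log2 3.39 ± 0.21, adjusted p = 9.14e-07) and was 2.64-fold lower with Dox (-1.40 ± 0.21, adjusted p = 0.000935). TIPARP, an AHR-inducible ADP-ribosyltransferase, rose 2.29-fold (adjusted p = 0.000108) and was 1.71-fold lower with Dox (adjusted p = 0.00361). NQO1, a quinone reductase, was 1.52-fold lower in PS medium (adjusted p = 0.00508), and CYP1A1, the classical AHR target, read 26.4 to 58.2 over all arrays without a call in any comparison. ARNT, the partner of AHR, rose 1.17-fold (adjusted p = 0.0392). That call did not hold without untreated replicate 1 (0.146) or 2 (0.103), PS replicate 3 (0.122) or Dox replicate 1 (0.0532), and when only those 2 groups were fitted (0.0587).

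Of 21 measured genes of the interferon gamma axis, which controls IDO1 in immune cells, 4 rose and 7 fell in PS medium (median -0.11), and 1 rose and 5 fell with Dox against PS medium (median -0.04). The shares called were 52.4% and 28.6%, beside 29.8% and 17.4% of all genes. IFNG, which encodes interferon gamma, read 18.5 to 29.7 over all arrays and passed in no comparison. TAP1, a peptide transporter induced by interferon, was 2.29-fold lower in PS medium (adjusted p = 0.000258), and PSMB8, an immunoproteasome subunit, 1.77-fold lower (adjusted p = 0.00233). With Dox against PS medium TAP1 differed by 0.45 (adjusted p = 0.0895), and by a passing value without Dox replicate 3 (0.00379) or with the replicate block (0.0422). JAK2, a kinase of the interferon gamma receptor, rose 1.98-fold in PS medium (adjusted p = 8.19e-05) and was 1.41-fold lower with Dox (adjusted p = 0.0121, or 0.0536 without Dox replicate 1). SOCS1, which inhibits JAK kinases, rose 1.97-fold (adjusted p = 1.71e-05) and was 2.09-fold lower with Dox (adjusted p = 2.52e-05). IFI30, a lysosomal thiol reductase, was 1.38-fold lower with Dox (adjusted p = 0.00236). SOCS3, a relative of SOCS1, was also 1.38-fold lower with Dox (adjusted p = 0.0337), a call lost in 7 of 17 alternatives, among them without untreated replicate 1 (0.0545), PS replicate 2 (0.109) or 3 (0.0576), or Dox replicate 1 (0.106) or 3 (0.107).

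**Figure D3:**
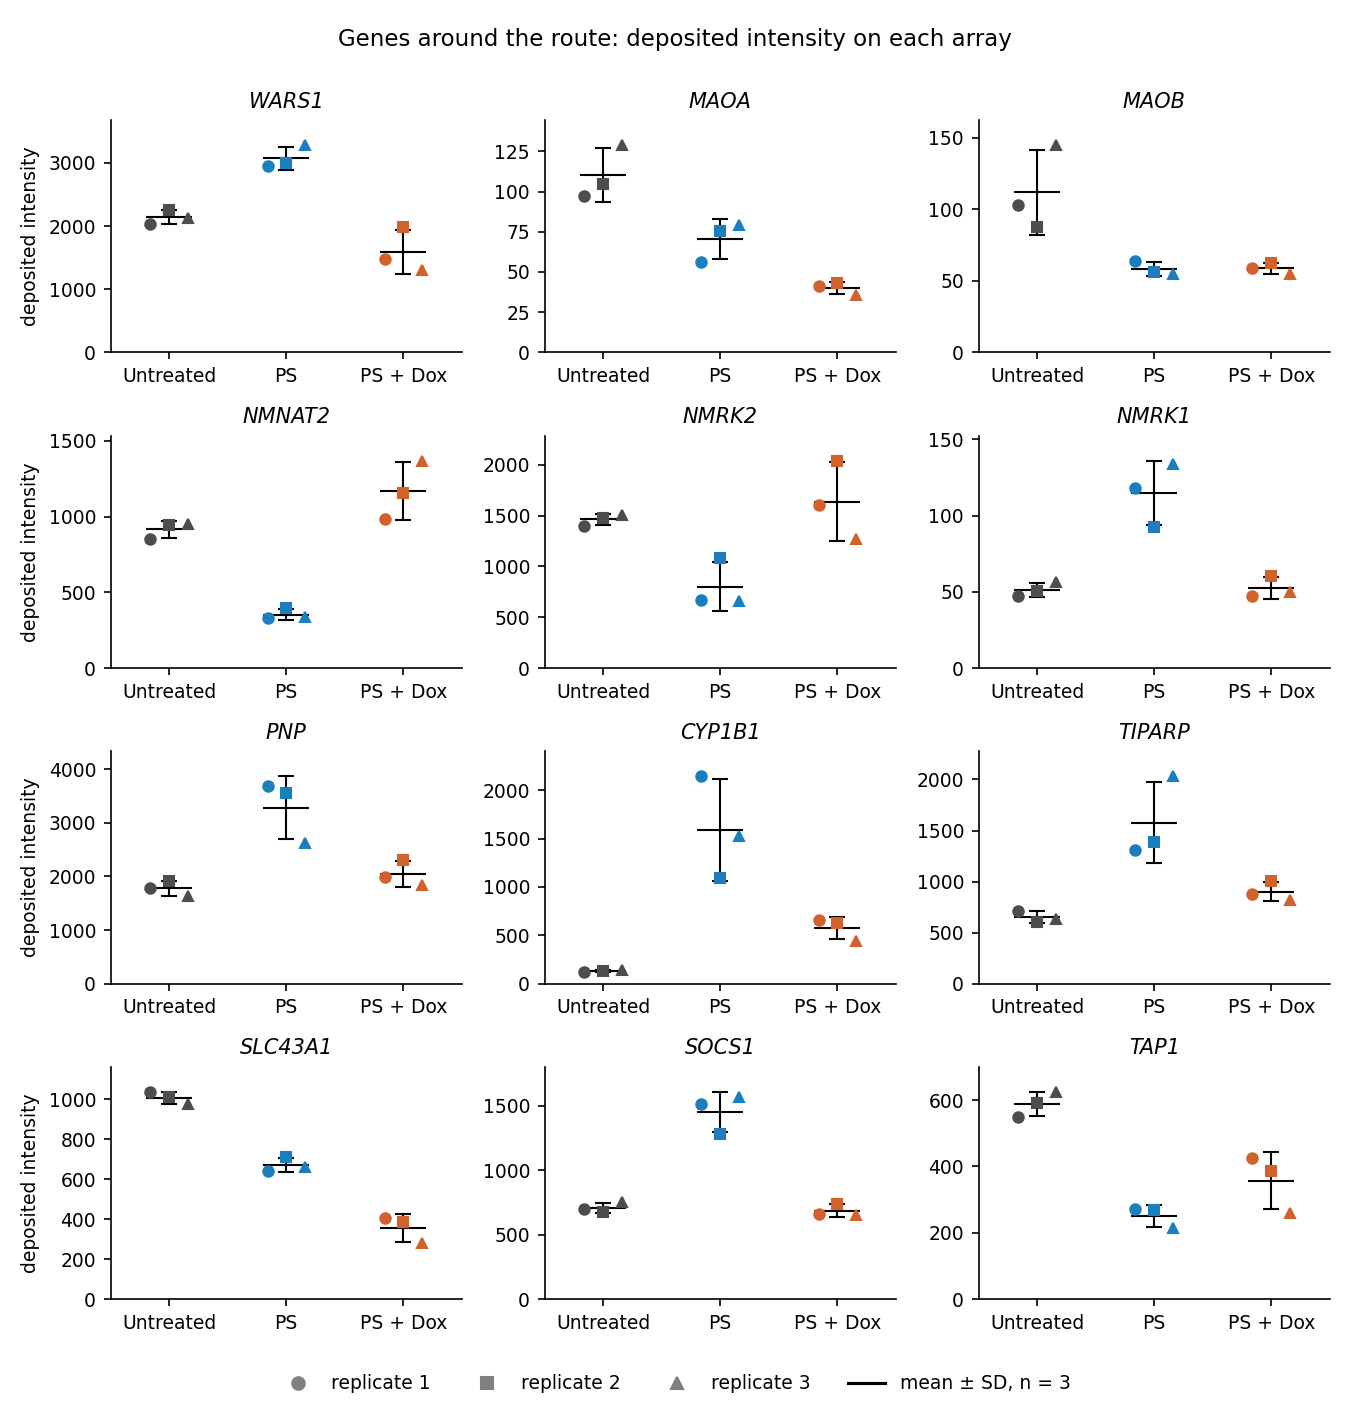
Deposited intensity (linear axis from 0, one scale per gene) of 12 genes around the kynurenine route on each of the 9 arrays, with the mean ± SD of 3 arrays. NMNAT2 and NMRK2 are lowest on the PS arrays, whereas WARS1, NMRK1, PNP, CYP1B1, TIPARP and SOCS1 are highest there.

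The 5 genes with the profile most like that of IDO1 were found by the root mean square difference, over 9 arrays, between normalized log2 values after subtracting each gene's own mean. They were RIPOR2 (0.27 on the log2 scale), GRIA4 (0.42), LMO3 (0.57), TRIM22 (0.64) and CXCL5 (0.65), of 18416 genes compared. RIPOR2 read 1246 to 1378 in untreated cells, 63.5 to 73.1 in PS medium and 188 to 308 with Dox. GRIA4, a glutamate receptor subunit, read 505 to 520.4, 17.9 to 25.5 and 112 to 232. LMO3, a LIM-only protein, read 202 to 268, 7.16 to 18.8 and 16.6 to 34.4. TRIM22, an interferon-inducible antiviral protein, read 1311 to 1448, 96.5 to 244 and 179 to 347, and CXCL5, a chemokine, 813 to 1257, 81.2 to 86.3 and 87.3 to 152. In RIPOR2 and GRIA4, as in IDO1, the 3 groups did not overlap and Dox lay between the others. In LMO3 and TRIM22 the Dox and PS arrays overlapped. In CXCL5 they did not, with 87.3 as the lowest Dox value and 86.3 as the highest in PS medium. They were chosen for this likeness, so the values are a description.

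**Figure D4:**
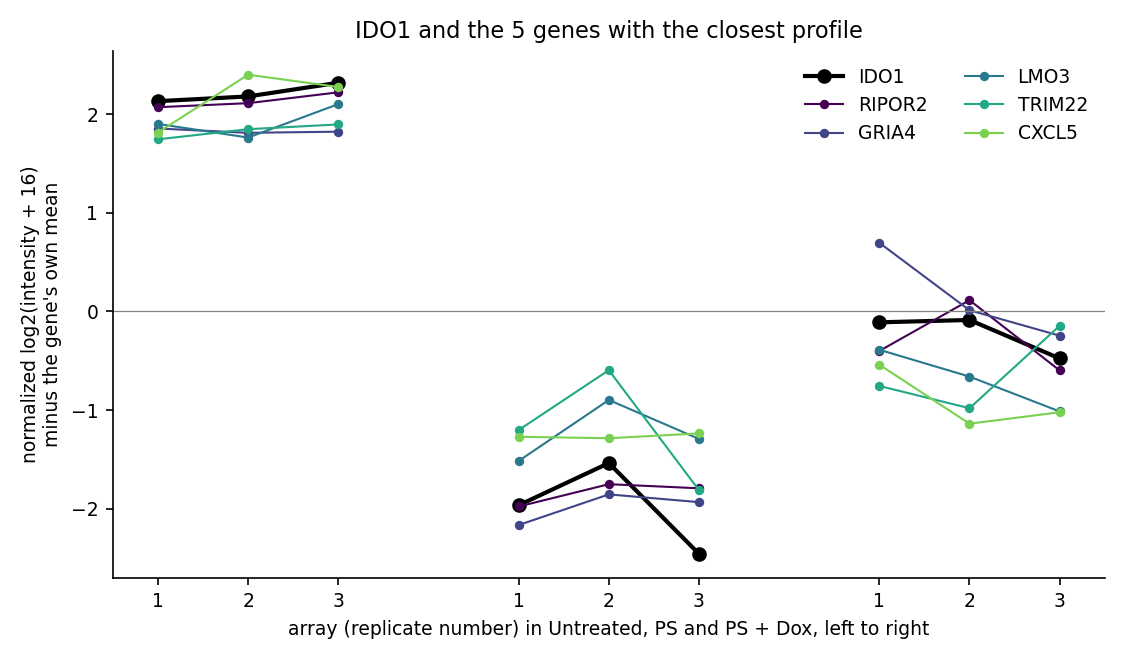
Normalized log2(intensity + 16) minus each gene's own mean over 9 arrays, for IDO1 (black) and the 5 genes closest to it, with arrays ordered by group and replicate number. All 6 genes are high on the untreated arrays. IDO1, RIPOR2 and GRIA4 are higher on every Dox array than on any PS array.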

How the data were processed

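RNA was measured on 9 Affymetrix arrays, 3 per group. The deposited values are linear intensity per probe set, made with Affymetrix Expression Console 1.1.1 and the PLIER 2.0 summary, per the submitters' processing notes. The sources used here do not state the background correction or the between-array normalization. Of 33297 probe sets, 19460 had 1 gene symbol, 1754 several and 12083 none listed. By gene number 19429 took the symbol of a GRCh38.p14 listing and 31 kept theirs. The probe set with the highest mean stood for each of 18417 genes, with no filter on low values. Intensities became log2(value + 16) and were quantile-normalized over all probe sets, since array medians spanned 0.10 on that scale. Groups were compared with limma (version 3.58.1, in R 4.3.3), with 1 mean per group over all 9 arrays, 6 residual degrees of freedom and a trended eBayes prior, with Benjamini-Hochberg adjustment over 18417 genes at 0.05. Intervals are 95% limma intervals. The procedure was tested on simulated data with independent arrays and changes placed only in brighter genes. That test did not cover dim members such as TDO2 or same-numbered samples that pair. Other tools were data.table at version 1.17.8, Python 3.11.15 and matplotlib 3.10.9.

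The members and lists were chosen with earlier results of these data known. IDO1 has no test and is not in the counts of members called. Named were all 9 members, TCF7L1, up to 4 genes per pathway list and comparison with the largest differences past the threshold, and the 5 genes most like IDO1. Genes named beyond this (AHR, CYP1A1, IFNG, IRF1 and markers) were chosen after their values were seen. List medians and counts are descriptions, with no set test.

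Nothing in the labels says that the replicates were separate cultures. A p-value here therefore measures the spread among these samples alone, and that spread may be technical. Deviations of same-numbered arrays correlated over genes at 0.245, 0.428 and 0.246 between Dox and PS medium, at 0.246, 0.309 and 0.297 between Dox and untreated cells, and at 0.0856, 0.397 and 0.271 between PS medium and untreated cells. Each value of the Dox comparisons was over 0.1, so by these data the numbers pair the samples there. The reported values come from the fit without pairing, and the replicate block is an alternative, given where it changes a call. The alternatives were other normalizations, offsets of 1 and 64, leaving out the dimmest 25% of genes, all probe sets, 2 groups alone, the replicate block and leaving out each array.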

Additional observations from a re-analysis of the deposited data

How the results depend on the processing

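AADAT, HAAO and TDO2 kept their direction under every alternative run, and AADAT and HAAO kept each call of PS medium against untreated cells and of Dox against PS medium. The IDO1 log2 difference of PS medium minus untreated cells was -4.59 with an offset of 1 and -3.42 with 64, and with 64 it was 1.22 for Dox minus PS medium and -2.19 for Dox minus untreated cells. Leaving out 1 array gave -4.41 to -3.95, 1.52 to 1.99 and -2.49 to -2.31 for these IDO1 differences. It gave 4161 to 5634, 2405 to 3076 and 4166 to 6028 genes called in the same comparisons (5496, 3196 and 5574 with all arrays). Tested members called were then 2, 3 and 2 without any 1 array. Without the dimmest genes, which drops TDO2, IDO2, KMO and KYNU from the fit, 1 tested member was called for Dox against untreated cells in place of 2. With the replicate block, 4482 genes were called for Dox against PS medium, and 4 tested members in place of 3, QPRT being added. The block changed no other call of a tested member. Between PS medium and untreated cells the correlation for replicate 1 was 0.0856, under 0.1, so this check does not settle pairing there. The block gave 6936 genes in that comparison, and every array correlated best with its own number. With median centring 55.4% of calls in PS medium against untreated cells were higher, in place of 47.5%. IDO2, TDO2, KMO and KYNU lay below the lower quartile of each array, where the offset compresses differences, and the table gives no detection call. IDO1 lay below it on PS replicates 1 and 3 (48.3 and 27.6) and little above it on PS replicate 2 (67.3).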

Other observations

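Of 8 genes of the response to amino acid shortage, which tryptophan loss can trigger through the kinase GCN2, 2 rose and 2 fell in PS medium, and 0 rose and 2 fell with Dox against PS medium by limma (0 rises and 5 falls unadjusted). With Dox against untreated cells 0 rose and 5 fell (0 and 6 unadjusted). The shares called were 50%, 25% and 62.5%, beside 29.8%, 17.4% and 30.3% of all genes. EIF2AK4, which encodes GCN2, read 3037, 3012 and 3307 without treatment, 1341, 1356 and 1361 in PS medium, and 1428, 1288 and 1376 with Dox. It was 2.32-fold lower in PS medium (limma adjusted p = 3.65e-07), and its difference with Dox against PS medium was 0.02 (95% interval -0.12 to 0.17, adjusted p = 0.873). ASNS, asparagine synthetase, rose 1.23-fold in PS medium (adjusted p = 0.00832) and was 1.32-fold lower with Dox (adjusted p = 0.00292). CHAC1, a glutathione-degrading target of the pathway, was 1.98-fold lower with Dox (adjusted p = 0.0119). Its difference of -0.60 in PS medium missed the threshold (adjusted p = 0.0729) and passed without PS replicate 3 (0.00100). TRIB3, a pseudokinase of the same response, was 1.42-fold lower in PS medium (adjusted p = 0.00295). DDIT3, a stress transcription factor, was 1.48-fold higher there (adjusted p = 0.0383), a call lost without untreated replicate 1 (0.116), 2 (0.0858) or 3 (0.0789), PS replicate 3 (0.0579) or Dox replicate 1 (0.0537), and when only those 2 groups were fitted (0.0600).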
